A study of Arabidopsis thaliana with 15 samples.

Results

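The genes described here encode secreted proteins of the CAP family of Arabidopsis thaliana, the family of the defence protein PR1. Their members were a list of 10 loci, and 9 of these 10 had a probe set annotated to a single gene among the 22746 probe sets analysed; AT5G57625 is not analysed here. The list was drawn up with values of these same arrays in view. The levels, differences and calls of its members are therefore given as a description, with no p-value.

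CAP proteins (cysteine-rich secretory proteins, antigen 5 and PR-1) share a compact, disulfide-linked fold and usually carry a signal peptide that sends them out of the cell. PR1 itself is the textbook marker of salicylic acid-dependent defence, PR-1 proteins of tobacco and tomato are known to bind sterols and to act against oomycetes, and a peptide cut from the end of tomato PR-1b is known as a defence signal. In Arabidopsis most of the other members have no assigned role.

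Gene expression was measured on 15 Affymetrix arrays of sorted root cells, with 3 arrays for each of 5 populations of ecotype Columbia. All seedlings grew for 5 days and then spent 3 h on medium without sulfur, so every comparison here sets 1 population against others under the same medium. Roots were turned into protoplasts, cells without walls, and sorted by the fluorescence of a marker line. The columella, the core of the root cap, came from Pet111. The epidermis, which includes the lateral root cap, came from pWER::GFP. The cortex came from pCOR::GFP, the endodermis with the quiescent center from pSCR::GFP, and the stele, the central vascular cylinder, from pWOL::GFP. Each population is thus defined by where 1 promoter or enhancer is active. The labels do not state that replicates were separate plantings, so the spread and the p-values may be technical.

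The labels were set beside the named markers fixed for each population. The root cap list had 1 of 5 loci with a named probe set, the polygalacturonase gene RCPG (AT1G65570), whose deposited signal was 4003 to 8749 in the columella and at most 91.7 in the cortex and 82.2 in the endodermis. The 4 of 4 named cortex markers summed to 3107 to 3838 in the cortex and to 550 to 626 in the endodermis, with no other array above 82.9. The 3 of 7 endodermis markers summed to 3893 to 4657 in the endodermis and to 1329 to 1599 in the cortex, and reached 567 in the epidermis and 350 in the stele. The 2 of 6 hair markers summed to 575 to 838 in the epidermis but also reached 669 in the stele, on replicate 2. The 2 of 6 stele markers summed to 302 to 1909 in the stele and 224 to 1476 in the epidermis. Their sums were 413 to 798 in the endodermis, 319 to 408 in the columella and 67.1 to 143 in the cortex. With all 15 arrays as labelled, these sums did not set the stele apart. Across all tested probe sets, 2 arrays stood apart: epidermis replicate 2 lay nearest to stele replicate 2 (r = 0.973, against at most 0.826 with its own population), and the best match of stele replicate 1 was epidermis replicate 3 (r = 0.965 against 0.845). Groups were kept as labelled, and results are given with 15 arrays and with the 13 others. The stele markers AT2G27230 and AT1G30490 had their lowest stele and highest epidermis values on the 2 arrays left out. Their stele differences from the mean of the other populations were 1.456 ± 0.436 and 1.199 ± 0.815 (SE) with 15 arrays. With 13 they were 2.271 ± 0.272 and 2.965 ± 0.262. Stele replicate 2, which had the hair marker sum of 669, is among those 13. On epidermis replicate 2, left out, the hair markers AT1G12560 and AT1G62980 had deposited signals of 342 and 390, between those of the other epidermis arrays. On stele replicate 1, also left out, they had 241 and 348. In bulk samples such as these, fewer cells of a type and less RNA per cell cannot be told apart.

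Levels are given as the deposited signal or as log2(signal + 16) after quantile normalization, and differences are on that log2 scale, which understates changes of dim probe sets. A probe set was tested if its signal lay above the 40th percentile of its array, 5.61 on the log2 scale, on at least 3 arrays. AT1G50060, AT4G33730, AT4G25780, AT4G30320 and AT5G66590 passed this filter, and AT1G50050, AT4G33720, AT3G19690 and AT2G19990 did not. A member can pass through the population where it is high, so the 5 are not a sample of the family. None of the probe sets analysed for the family carried the name suffix that marks sequence shared between genes. Only probe sets annotated to a single gene were taken, so this says little about shared signal. Signal shared between related genes was not tested.

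**Figure D1:**
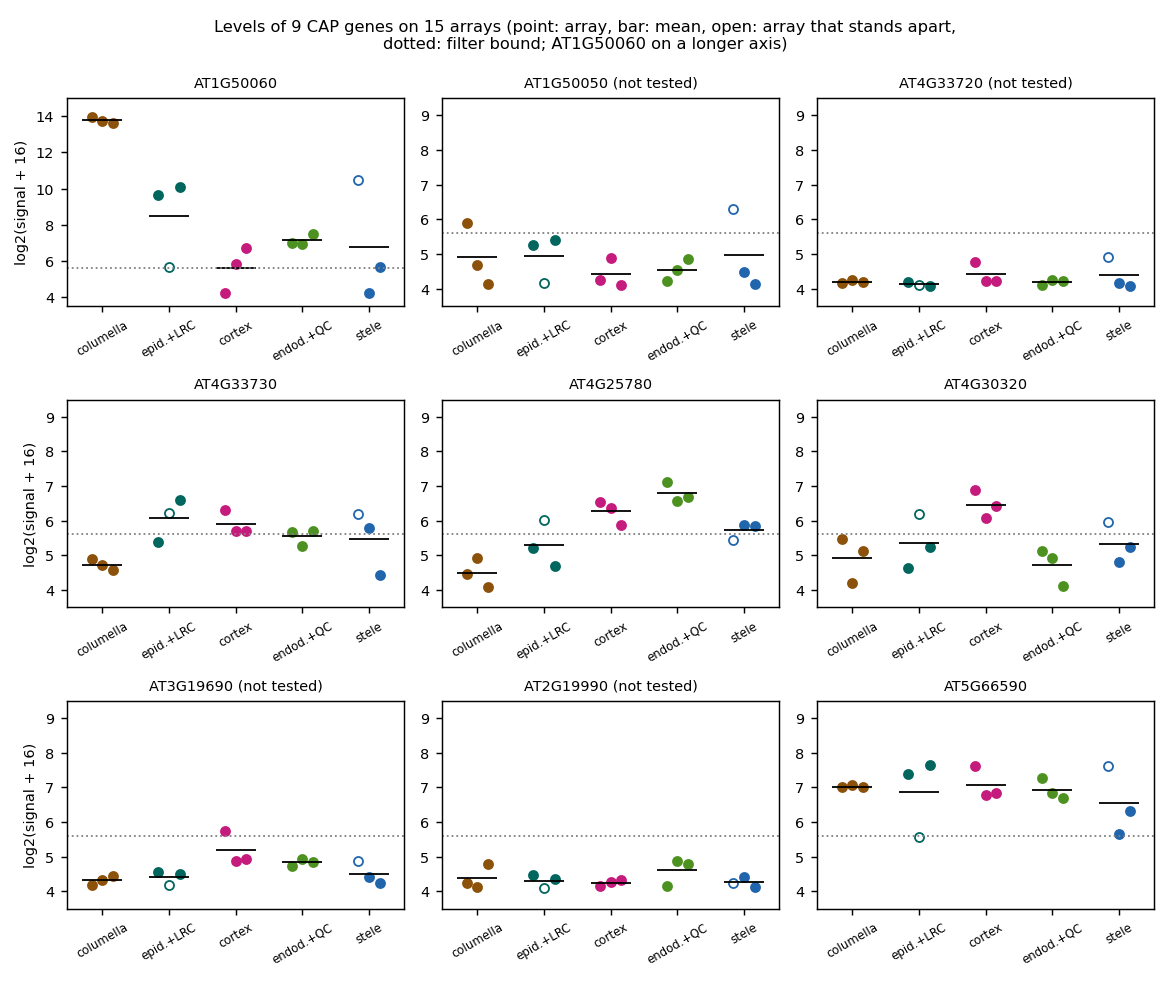
Log2 level of the 9 CAP genes on each of the 15 arrays, by population (LRC, lateral root cap; QC, quiescent center); points are arrays, bars are means of 3, open points are epidermis replicate 2 and stele replicate 1, and the dotted line is the filter bound at 5.61. AT1G50060, on a longer axis, lies at 13.63 to 13.97 in the columella and at 10.47 or below on every other array.

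AT1G50060 was the root cap gene among the members. Its deposited signal was 21365, 12302 and 10542 on the 3 columella arrays. In the epidermis it was 779, 46.1 and 1099, and in the stele 1444, 3.05 and 44.2. It was 2.79, 31.0 and 73.4 in the cortex and 108, 102 and 161 in the endodermis. All 3 columella arrays were above every other array. The next levels were those of stele replicate 1, epidermis replicate 3 and epidermis replicate 1, while epidermis replicate 2 was as low as the other stele arrays.

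On the log2 scale the columella mean of AT1G50060 was 13.77 ± 0.18 (SD, n = 3). It exceeded the mean of the other 4 populations by 6.78 ± 1.04 (SE), or 110-fold, and by 6.90 ± 0.37 without the 2 arrays that stood apart. Among the other 4 populations the order was epidermis (8.46 ± 2.46, SD), endodermis (7.13 ± 0.32), stele (6.79 ± 3.27) and cortex (5.59 ± 1.27), and neighbours in that order overlapped. With 13 arrays, the epidermis exceeded the mean of the others by 2.03 ± 0.43 (SE) where it had been 0.14 ± 1.04 with 15, and the stele difference went from -1.95 ± 1.04 to -4.15 ± 0.43. Those epidermis and stele values then rest on 2 arrays each.

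RCPG, the root cap marker, also had its 6 highest levels on these 3 columella, 2 epidermis and 1 stele arrays. Its log2 level was 12.12 to 12.99 in the columella, 9.19 and 9.61 on epidermis replicates 1 and 3, 8.92 on stele replicate 1 and 4.82 on epidermis replicate 2. Over the 15 arrays its Pearson correlation with AT1G50060 was 0.965, and 0.968 over 13, as a description of points that share arrays and populations. ZAT10 (AT1G27730, listed as STZ), a zinc finger gene that wounding and protoplasting can induce, was also higher in the columella, by 2.02 ± 0.31 (SE, limma adjusted p = 0.000118). WRKY53 (AT4G23810), the other wound and touch gene with a named probe set, was lower there, at a log2 difference of -1.05 ± 0.20 (SE, limma adjusted p = 0.000788). Its deposited signal was 84.0 to 111 in the columella and 144 to 319 elsewhere. The sum of both, most of it from ZAT10 in the columella, was 3483 to 6177 in the columella, 2293 to 2517 in the cortex and 699 to 2081 elsewhere. The part of these markers in the AT1G50060 values was not tested.

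AT1G50050, the next gene to AT1G50060 on the chromosome with no protein-coding gene between them, did not have that level in the columella. Its deposited signal there was 42.0, 11.1 and 1.12. It was above the filter bound on 2 of 15 arrays, columella replicate 1 and stele replicate 1, at log2 levels of 5.88 and 6.31. All neighbouring populations in its order overlapped.

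**Figure D2:**
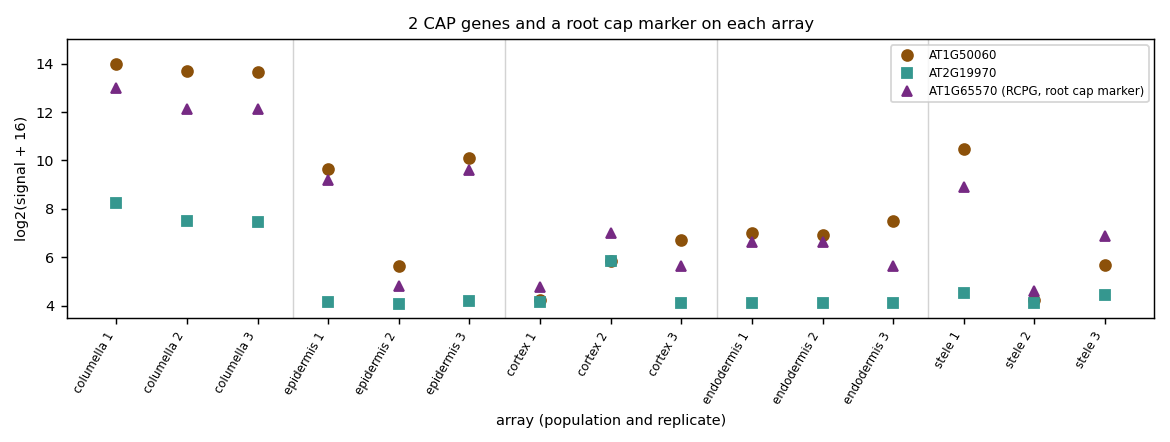
Log2 level of AT1G50060 (circles), the related gene AT2G19970 (squares) and the root cap marker RCPG (triangles) on each of the 15 arrays; vertical lines separate populations, and levels of different probe sets are not comparable with each other. All 3 genes are highest on the columella arrays, and AT2G19970 is below the filter bound of 5.61 on every other array but cortex replicate 2.

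AT4G25780 had its highest levels in the endodermis and its lowest mean in the columella. Its deposited signal was 122, 77.0 and 83.6 in the endodermis, 60.6, 51.4 and 37.0 in the cortex and 5.47, 15.4 and 0.752 in the columella. The stele had 27.7, 54.6 and 52.8, and the epidermis 19.3, 66.2 and 10.1. All endodermis arrays lay above all cortex arrays on the log2 scale (lowest 6.56 against highest 6.55, so by a margin within the replicate spread), and all 3 columella arrays lay below the filter bound.

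The endodermis mean of AT4G25780 was 6.79 ± 0.30 (SD, n = 3) on the log2 scale, 1.34 ± 0.27 (SE) above the mean of the other populations. The columella mean was 4.50 ± 0.42 (SD), with a difference of -1.53 ± 0.27 (SE). Without the 2 arrays that stood apart these differences were 1.39 ± 0.23 and -1.46 ± 0.23. The ratio of 3′ to 5′ actin signal, which is higher where RNA is less intact, was 43.0 on endodermis replicate 2 and 6.56 and 7.15 on replicates 1 and 3, and its AT4G25780 level of 6.56 was the lowest of the 3. Elsewhere the ratio ran from 9.4 on epidermis replicate 1 to 28.3 on epidermis replicate 2, with 9.47 on epidermis replicate 3.

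AT4G30320 was highest in the cortex. Deposited signals were 79.8, 38.6 and 55.8 in the cortex and 14.7, 15.1 and 1.10 in the endodermis. In the columella it was 27.8, 2.47 and 15.5, in the epidermis 7.55, 76.4 and 23.0, and in the stele 44.1, 14.1 and 25.9. The cortex arrays did not overlap those of the columella, endodermis or stele, and epidermis replicate 2, at 6.19, overlapped them. The cortex mean of 6.45 ± 0.40 (SD, n = 3) was 1.36 ± 0.36 (SE) above the mean of the others, and 1.54 ± 0.29 with 13 arrays. The other 4 population means ran from 4.72 in the endodermis to 5.36 in the epidermis, and neighbours among them overlapped.

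AT4G33730 was low in the columella and spread over the other populations. Deposited signals were 13.4, 11.7 and 6.51 in the columella, 50.0, 28.2 and 32.1 in the cortex and 31.1, 23.1 and 32.9 in the endodermis. The epidermis had 23.9, 78.1 and 73.6, and the stele 54.1, 50.0 and 6.60. Only stele replicate 3 was as low as the columella arrays. The columella difference was -1.02 ± 0.32 (SE) with 15 arrays and -0.91 ± 0.29 with 13, on either side of the log2 threshold of 1.

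AT5G66590 had its signal above the filter bound on 14 of 15 arrays. Its deposited signal was 115, 129 and 124 in the columella, 151, 74.8 and 82.1 in the cortex and 138, 96.8 and 84.2 in the endodermis. The epidermis had 144, 42.9 and 168, and the stele 174, 43.5 and 80.4. The population means, 6.54 to 7.08 on the log2 scale, all overlapped, and the spread was widest in the epidermis (SD 1.13) and the stele (SD 1.00). Epidermis replicate 2 was at the level of stele replicate 2, and stele replicate 1 at that of the other epidermis arrays. Without both, the stele difference was -1.16 ± 0.25 (SE) where it had been -0.44 ± 0.41, and the epidermis difference was 0.77 ± 0.25.

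**Figure D3:**
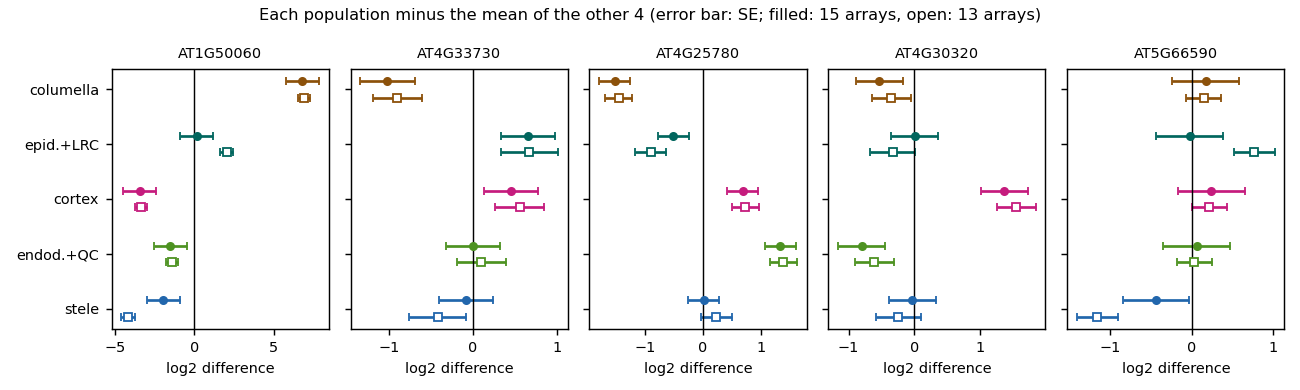
Log2 difference of each population from the mean of the other 4 for the 5 tested members (error bars, SE); filled circles use 15 arrays and open squares the 13 without epidermis replicate 2 and stele replicate 1, and the horizontal axes differ between panels. The epidermis and stele differences of AT1G50060 and AT5G66590 move most, while the columella difference of AT1G50060 is 6.78 and 6.90.

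The 3 remaining members were dim. AT4G33720 was below the filter bound on all 15 arrays, with its highest deposited signals, 14.0 and 11.5, on stele replicate 1 and cortex replicate 1. AT2G19990, listed as PR-1-LIKE, was below it on all 15 arrays too, at a signal of 13.8 or less. AT3G19690 was above it on 1 array, cortex replicate 1, at a signal of 32.0. For each of these genes, neighbouring populations in the order of means overlapped. For AT3G19690 the log2 levels in the cortex (4.89 to 5.73) and the endodermis (4.73 to 4.95) were all above those in the columella (4.18 to 4.45) and the epidermis (4.19 to 4.57), below the filter bound on all but 1 array. These genes were not tested in the fit with the filter.

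Counted over the tested members, 3 of 5 passed the F test for unequal population means (limma, Benjamini-Hochberg adjusted p under 0.05), where 66.1% of all 16123 tested probe sets did. A call in a population needed a limma adjusted p under 0.05 together with a difference from the mean of the others of at least 1 in log2. In the columella AT1G50060 was called higher (11.7% of all tested probe sets) and AT4G33730 and AT4G25780 lower (11.7%). In the cortex AT4G30320 was called higher (13.4%) and AT1G50060 lower (14.6%, at -3.45 ± 1.04, SE). In the endodermis AT4G25780 was called higher (7.81%). No member was called in the epidermis (6.91% of probe sets higher, 6.11% lower), lower in the endodermis (3.43%) or in the stele (6.49% higher, 5.9% lower) by limma. At an unadjusted p under 0.05 the counts there were 0 in the epidermis, 0 in the stele and 1 lower in the endodermis. The list was chosen with these contrasts in view, so nothing is read from the counts. The 5 differences of a gene cancel out over the populations, so a high value in 1 of them lowers the rest.

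With 13 arrays all 5 passed the F test, as did 83.1% of all probe sets. AT1G50060 was then also called higher in the epidermis (11.6% of probe sets) and lower in the endodermis (4.72%) and the stele (11%), and AT5G66590 was called lower in the stele. AT4G33730 was no longer called lower in the columella (12.7%). The calls of AT1G50060 higher in the columella (12.3%) and lower in the cortex (16.4%), of AT4G30320 higher in the cortex (14.2%) and of AT4G25780 lower in the columella and higher in the endodermis (9.16%) stood with 13 arrays too, and none was called lower in the epidermis (12.5%) or higher in the stele (12.9%) by limma, with 1 and 0 at an unadjusted p under 0.05. The median difference of the 5 members was -0.54 in the columella and 0.45 in the cortex, against -0.03 and -0.07 for all tested probe sets; in the epidermis, the endodermis and the stele it was 0.00, 0.00 and -0.08, against -0.01, -0.09 and 0.00.

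How alike the members were across the arrays was described by correlation. Among the 10 pairs of tested members the Pearson correlation over 15 arrays ran from -0.81 (AT1G50060 with AT4G25780) to 0.46 (AT4G33730 with AT4G30320), as a description of points that share arrays and populations. For each tested member, the 3 genes of most like pattern were found by this correlation among 8832 genes with a tested, named probe set. For AT1G50060 they were AT5G51470, of the GH3 family whose known members join amino acids to hormones, AT4G23590 and AT3G61930 (0.980 to 0.984). For AT4G25780 they were IQD23, of a calmodulin-binding family, AT5G12340 and AT3G43430 (0.942 to 0.950). For AT4G30320 they were SBT3.5, a subtilisin-like protease gene, AT3G44440 and AT1G07135 (0.828 to 0.919). For AT5G66590 they were AT5G12940, AT2G21850 and AT1G66450 (0.939 to 0.960), and for AT4G33730, AT3G16370, AT5G15640 and AT3G16530 (0.841 to 0.865).

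The rest of the family was set beside the members from a list of 12 further loci, of which 10 had a named probe set and 3 passed the filter. PR1 and PRB1, its basic relative, are not analysed here. Of the 3 tested genes, 2 passed the F test, as did 66.1% of all tested probe sets. AT2G19970 was called higher in the columella (11.7% of all tested probe sets) and lower in the epidermis (6.11%) and the endodermis (3.43%). It passed the filter through the columella, where it was high, so its calls are a description. That high level is part of the mean that the epidermis and the endodermis were set against. Against the stele alone, the epidermis differed by -0.20 ± 0.39 (SE) and the endodermis by -0.25 ± 0.39, and neither was called. AT4G31470 was called lower in the columella (11.7%) and higher in both the endodermis (7.81%) and the cortex (13.4%). With 13 arrays it was also called lower in the stele (11% of probe sets), at -1.05 ± 0.27 (SE, limma adjusted p = 0.00397) where it had been -0.82 ± 0.25 with 15. AT4G25790 was called in no population. A list of 20 salicylic acid pathway loci, fixed for the same purpose, had 0 with a named probe set.

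AT2G19970 was a second CAP gene high in the columella. Its deposited signal was 297, 177 and 174 in the columella, 1.56, 1.09 and 2.85 in the epidermis and 0.637, 0.955 and 0.741 in the endodermis. It was 1.94, 31.3 and 1.10 in the cortex and 6.22, 1.24 and 5.91 in the stele. The 3 columella arrays were above all others, and cortex replicate 2 was the only other array above the filter bound. On that array RCPG, at a deposited signal of 91.7, was also at its highest in the cortex, and AT1G50060, at 31.0, was between the other 2 cortex arrays.

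The columella exceeded the mean of the others in AT2G19970 by 3.42 ± 0.31 log2 (SE) and each population taken singly by 3.04 to 3.64. Against the epidermis the difference was 3.59 ± 0.39 (SE), and 3.56 ± 0.43 with 13 arrays. AT2G19970 passed the filter through its columella arrays, so these differences are a description, with no p-value. For AT1G50060 the columella exceeded the epidermis by 5.31 ± 1.32 with 15 arrays and by 3.90 ± 0.51 with 13. AT2G19970 was below the filter bound on all epidermis arrays, so its difference there is limited by its level in the columella. Its correlation with RCPG over the 15 arrays was 0.830. The differences of both genes were not tested against each other.

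AT4G31470 was above the filter bound on all 15 arrays and highest in the endodermis and the cortex. Arrays of the endodermis had deposited signals of 486, 218 and 510, those of the cortex 299, 215 and 304, and the 9 others 41.1 to 109. The endodermis and cortex arrays were all above the others. Against the mean of the rest, the endodermis was higher by 1.62 ± 0.25 log2 (SE, limma adjusted p = 0.000351) and the cortex by 1.19 ± 0.25 (adjusted p = 0.00117), while the columella difference was -1.35 ± 0.25 (adjusted p = 0.000552). Between cortex and endodermis the difference was -0.34 ± 0.31 (adjusted p = 0.480). The columella differed from the epidermis by -0.57 ± 0.31 (limma adjusted p = 0.169) and from the stele by -0.42 ± 0.31 (limma adjusted p = 0.312). Its difference from the mean of the rest thus includes the high endodermis and cortex levels. The lowest endodermis value was again on replicate 2. AT4G31470 and the member AT4G25780 had a correlation of 0.79 over the 15 arrays.

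**Figure D4:**
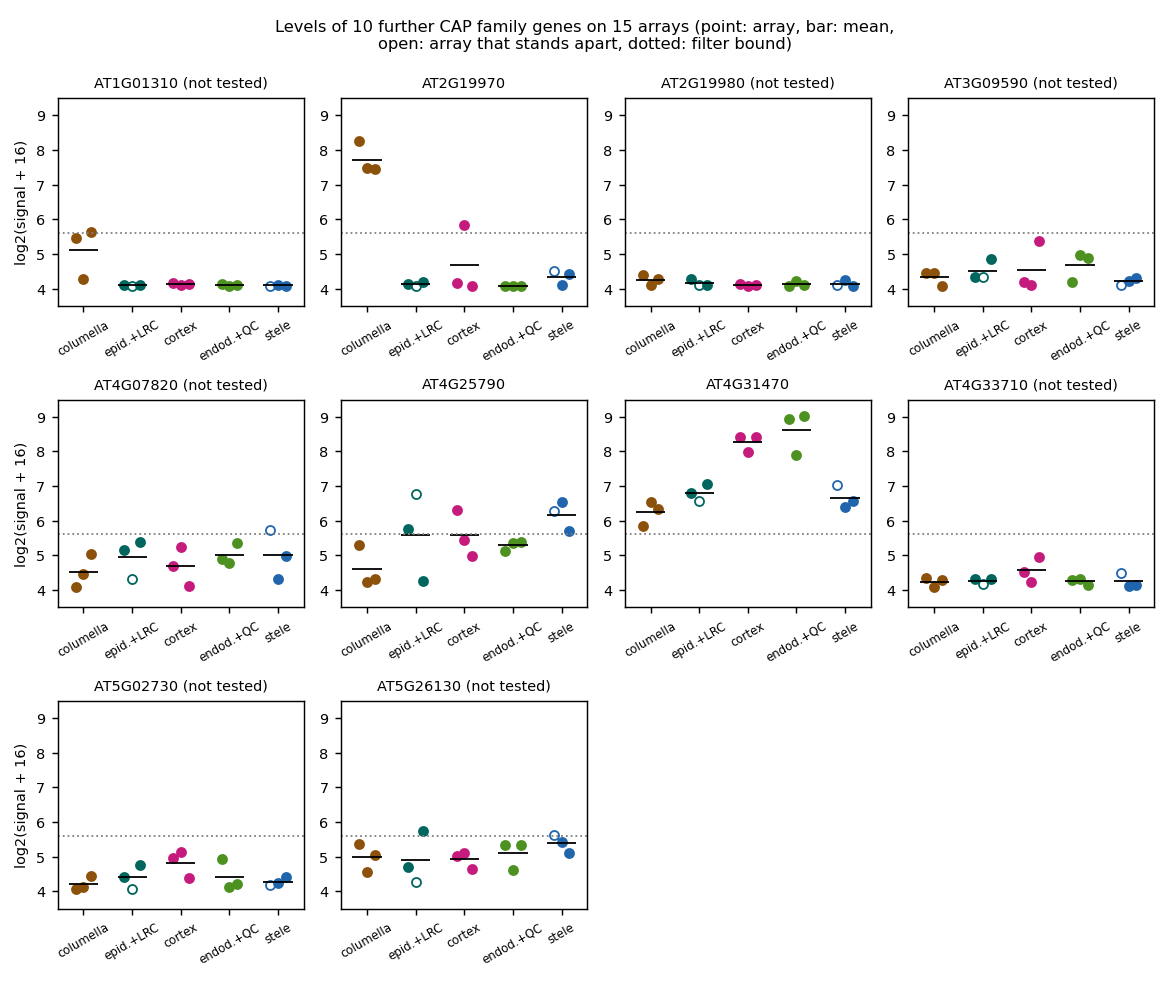
Log2 level of the 10 further CAP family genes with a named probe set on each of the 15 arrays; points are arrays, bars are means of 3, open points are epidermis replicate 2 and stele replicate 1, and the dotted line is the filter bound at 5.61. AT2G19970 stands above the bound in the columella and AT4G31470 in every population, highest in the endodermis and the cortex.

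Several CAP genes are direct neighbours, with no protein-coding gene between them in the gene table, and 4 such groups had a named probe set for each gene. In the pair AT1G50050 and AT1G50060, only the latter was high in the columella. In the run AT2G19970, AT2G19980 and AT2G19990, AT2G19970 was above the filter bound on the columella arrays, while neither of the others was above it on any array. In the pair AT4G25780 and AT4G25790, the highest population was the endodermis for the first and the stele for the second (6.17 ± 0.43, SD, n = 3), and the F test gave AT4G25790 an adjusted p of 0.137. In the run AT4G33710, AT4G33720 and AT4G33730, only AT4G33730 passed the filter.

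The remaining 7 genes of the further list did not pass the filter. AT1G01310 had deposited signals of 27.4, 4.31 and 29.5 in the columella and at most 1.98 on any other array. Its 3 columella arrays were thus above all others, but 1 of them lay above the filter bound. AT2G19980, AT3G09590, AT4G33710 and AT5G02730 were below the bound on all 15 arrays, AT4G07820 was above it on 1 and AT5G26130 on 2.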

How the data were processed

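The file held 1 linear signal intensity per probe set and array, deposited by the authors; the submitters' processing notes name MAS5, whose version and scaling target are not given in the sources used here. Detection calls were not used. Precision is limited by the number of arrays. The 64 control probe sets of 22810 were left out, and values were quantile normalized, because array medians ran from 46.0 to 80.9, and taken as log2(signal + 16). With R 4.3.3 and limma 3.58.1, 1 model with 5 population means was fitted (lmFit, eBayes with a variance trend), and Benjamini-Hochberg adjustment ran over all 16123 tested probe sets. The fit was run on simulated arrays with independent noise of capped spread and with changes placed only in brighter probe sets. That run does not cover dim members or arrays that stand apart. Figures were drawn with Python 3.11.15 and matplotlib 3.10.9.

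Genes were named through the annotation of the platform and the gene table of TAIR10.1; the build of the array design is not given, so no coordinates are printed. Text names all listed members and other family genes with a named probe set, and for each tested member the 3 most correlated genes. Members, lists and alternatives were chosen with earlier results of these data known. Alternatives were the deposited scaling, other pseudocounts and filters, no variance trend, array weights, a replicate block, and arrays left out. Deviations from the population means correlated above 0.1 in 6 of 30 same-numbered pairs across populations (median -0.012, range -0.52 to 0.72). Among pairs of different number they did so in 6 of 60 (median -0.001, range -0.80 to 0.72). No pairing was used in the main fit, and the replicate block was run as an alternative.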

Additional observations from a re-analysis of the deposited data

How the results depend on the processing

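AT1G50060 was called higher in the columella under all 24 alternatives (log2 6.08 to 7.36), as were AT2G19970 in the columella (1.93 to 5.82, lowest with a pseudocount of 64) and AT4G31470 in the endodermis (1.29 to 1.98). AT1G50060 was listed with values of these arrays in view, and AT2G19970 passed the filter through its columella arrays. For both genes these calls are therefore a description and lend no weight to the columella difference. With the replicate block each count was as without it, for example 3 members past the F test. That count was 4 with no filter, where all 9 members are tested, 1 with the filter at the 60th percentile, where fewer members are tested, and 5 without both arrays that stood apart. Of all tested probe sets, 66.1% passed in the main fit and 83.1% without both arrays. The shares under the other filters are not given here, so nothing is read from the counts of 4 and 1. The 2 calls lower in the columella became 1 under the deposited scaling, with array weights and without both arrays, 0 with a pseudocount of 64 or the 60th percentile, and 1 to 2 when 1 array was left out (1 without any single columella array, cortex replicate 1, replicate 2 or 3 of the epidermis, or replicate 1 or 2 of the stele). The single calls higher in the cortex and in the endodermis were 0 with a pseudocount of 64 (AT4G30320 at 0.70, AT4G25780 at 0.75) and with the 60th percentile. The call lower in the cortex was 0 to 1 with 1 array left out, 0 without cortex replicate 1. In the epidermis 1 was higher without both arrays. In the endodermis 1 was lower without both arrays and with array weights. In the stele, 2 were lower without both arrays, 1 with array weights, and 0 to 1 with 1 array left out (1 without stele replicate 1). AT4G25790 was called higher in the stele without epidermis replicate 2 (1.03). The cortex difference of AT5G66590, 0.24 and not called, was -0.069 under the deposited scaling and -0.023 to 0.387 with 1 array left out, lowest without cortex replicate 1. The cause of these changes was otherwise not tested. Dim signal limits the 4 members that were not tested.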
